A study of Mus musculus with 4 samples.

Results

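Cycling macrophage nuclei are macrophages that carry transcripts of the proliferation program. The 213 nuclei described here were 10.1% of the 2113 macrophage nuclei and came from 48428 nuclei kept in all. They were found by a rule on counts of unique molecular identifiers (UMIs, one per captured RNA molecule). A kept barcode had at least 200 genes and under 10% mitochondrial UMIs. A cycling macrophage had under 1% of its UMIs from Ryr2 (the cardiac ryanodine receptor, abundant in cardiomyocyte nuclei), at least 3 UMIs over Mrc1, F13a1, Csf1r, Dock2 and Ptprc (macrophage and leukocyte genes), at least 2 UMIs over the cycle genes Mki67, Top2a, Cenpe, Cenpf, Kif11 and Anln, and at most 1 UMI over Ptprb, Pdgfra and Pdgfrb (endothelial, fibroblast and pericyte genes). The 1900 macrophages with 0 or 1 cycle-gene UMI are called non-cycling here. The measured values of these 15 genes therefore chose the nuclei and are given below as a description.

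The nuclei came from flash-frozen right ventricles (RVs) of wild-type C57/BL6J mice at P21 (postnatal day 21). At P7 the mice had either an abdominal aorta and inferior vena cava fistula, which sends extra blood to the right heart and produces RV volume overload (RVVO), or a sham operation. There were 2 sham and 2 RVVO libraries, made from nuclei with droplet 3′ chemistry version 3, and the labels do not say how many animals went into a library or that replicates were separate animals, so p-values measure the spread between these libraries only. The libraries held 15568 (sham 1), 15430 (sham 2), 8700 (RVVO 1) and 13392 (RVVO 2) barcodes with 55516713, 51010039, 64739206 and 63422784 UMIs. Between 28 and 70 barcode sequences were shared by any pair of libraries. Xist, the RNA that coats the inactive X chromosome, had 2304 and 2815 UMIs in the non-cycling macrophages of sham 1 and sham 2 and 0 in both RVVO libraries, while Uty and Ddx3y, which lie on the Y chromosome, were read almost only in the RVVO libraries. Surgery and sex therefore cannot be told apart wherever RVVO is set against sham.

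Macrophages of the heart are seeded before birth and are kept partly by division of the resident cells, which are known for Lyve1, Timd4 and Folr2, and partly by monocytes entering from blood, known for Ccr2 and MHC class II genes. A dividing cell first raises E2F target genes to copy its DNA, using the MCM helicase, polymerases and nucleotide synthesis enzymes, and then turns on genes of chromosome condensation, the spindle, the kinetochore and cytokinesis. Many late genes are held silent in resting cells by the DREAM complex and are driven by B-MYB and FOXM1 when the cell commits to mitosis.

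The members were spread unevenly over the libraries, with 35 in sham 1, 71 in sham 2, 24 in RVVO 1 and 83 in RVVO 2. The number of cycle-gene UMIs in a member ran from 2 to 35, with a median of 6. Of the members, 61 sat at the limit of 2 UMIs, 38 had 3 to 5 and 114 had 6 or more. Sham 1 had the lowest median, 3 such UMIs, against 6 in sham 2, 4.5 in RVVO 1 and 7 in RVVO 2. Just outside the rule lay 163 macrophages with 1 cycle-gene UMI, and 1737 had 0. The macrophage limit was less crowded, since 10 members had exactly 3 macrophage-gene UMIs and 6 otherwise qualifying nuclei had 2.

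**Figure D1:**
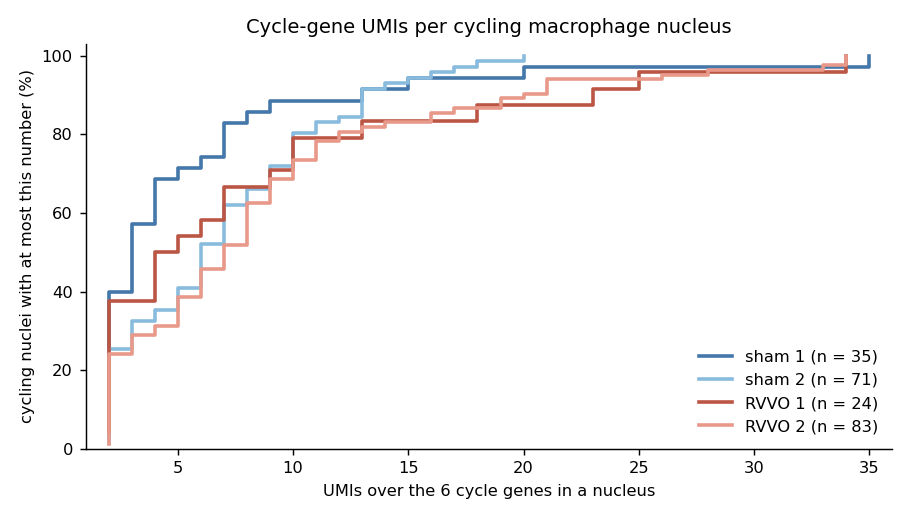
Cumulative share of cycling macrophage nuclei (y axis, percent) by the number of UMIs over the 6 cycle genes in a nucleus (x axis), one line per library. The sham 1 line rises first, with 40.0% of its 35 members at 2 UMIs, and the RVVO 2 line rises last, with 24.1% of its 83 members at 2 UMIs.

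The limit on Ptprb, Pdgfra and Pdgfrb removed more nuclei than it left. Among low-Ryr2 nuclei with at least 3 macrophage and at least 2 cycle-gene UMIs, 236 of 449 exceeded it (38 in sham 1, 36 in sham 2, 64 in RVVO 1 and 98 in RVVO 2). These excluded nuclei were deep, with a median of 14130 UMIs and of 7 UMIs over the 3 excluding genes, and 31 of them missed the limit by a single UMI. The members had a median of 3552 UMIs, and 53 of them had 1 UMI of an excluding gene. Members were also a minority of all low-Ryr2 nuclei with 2 or more cycle-gene UMIs, 213 of 745 (28.6%).

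Top2a (the topoisomerase that untangles replicated DNA) was the most abundant of the 6 cycle genes in the members, with 549, 729, 583 and 718 counts per 1000000 UMIs (CPM, the sum over these nuclei) in sham 1, sham 2, RVVO 1 and RVVO 2. Mki67 (the Ki-67 protein that coats mitotic chromosomes) followed with 234, 316, 350 and 339 CPM. Kif11 (the motor that pushes spindle poles apart) was at 132, 230, 296 and 215, and Anln (the anillin scaffold of the cytokinetic ring) at 161, 175, 314 and 247 CPM. Cenpe and Cenpf (kinetochore proteins) were at 183, 182, 98.7 and 237 and at 161, 208, 126 and 229 CPM. Each of the 6 genes lay between 0.823 and 11.8 CPM in the non-cycling macrophages of each library, low as the rule requires. These are nuclear 3′ tag counts, in which a gene's level also depends on its capture, so levels of different genes are not compared further.

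The promoters of these genes are shown because the rule rests on these genes and because their class is known for a pair of short elements, the CHR (searched as TTTGAA or TTCGAA on both strands, where TTCGAA is its own reverse complement) and the CCAAT box (searched as CCAAT on both strands). The 200 bases before the start are given 5′ to 3′ on the gene's strand from the RefSeq promoter table of build GRCm38.p6, with matches to either motif in capitals. The stretches are chr7:135716380-135716579 on the minus strand for Mki67, chr11:99024190-99024389 on the minus strand for Top2a and chr19:37376182-37376381 on the plus strand for Kif11.
Mki67: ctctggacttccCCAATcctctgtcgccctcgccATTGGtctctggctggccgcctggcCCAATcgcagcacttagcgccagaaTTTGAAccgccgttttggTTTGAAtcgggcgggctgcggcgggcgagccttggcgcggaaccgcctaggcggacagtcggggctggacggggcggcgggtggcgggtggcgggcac
Top2a: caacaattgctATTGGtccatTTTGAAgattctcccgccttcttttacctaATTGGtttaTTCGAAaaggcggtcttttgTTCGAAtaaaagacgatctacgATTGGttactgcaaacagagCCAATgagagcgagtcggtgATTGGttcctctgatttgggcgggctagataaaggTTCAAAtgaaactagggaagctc
Kif11: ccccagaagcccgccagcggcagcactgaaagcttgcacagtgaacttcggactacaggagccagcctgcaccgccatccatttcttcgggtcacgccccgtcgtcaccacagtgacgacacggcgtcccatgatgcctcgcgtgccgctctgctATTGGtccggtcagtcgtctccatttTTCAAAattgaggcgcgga
In these 200 bases Mki67 held 2 CHR and 3 CCAAT matches, Top2a 4 and 5, and Kif11 1 and 1, while Cenpe held 0 CHR and 1 CCAAT, Cenpf 0 and 2 and Anln 0 and 0. In these 200 bases no CHR match overlapped a CCAAT match. In the 300 bases of the table (250 before and 50 after the start), 5 of the 6 cycle genes had a CHR match, 5 had a CCAAT match and 4 had both. All 27025 promoters of the table held a CHR match in 19.4%, a CCAAT match in 37.9% and both in 7.70%. A match is a string of letters and says nothing of binding.

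The share of macrophages that were cycling is the direct comparison of RVVO with sham. Because a deeper nucleus passes a UMI limit more easily, each macrophage nucleus was thinned to 1000 UMIs and shallower ones were left out of the 469, 578, 271 and 795 macrophages. Then 13 of 434 nuclei in sham 1 (2.995%, exact 95% binomial interval 1.60 to 5.07), 41 of 498 in sham 2 (8.23%, 5.97 to 11), 8 of 268 in RVVO 1 (2.985%, 1.30 to 5.80) and 47 of 795 in RVVO 2 (5.91%, 4.38 to 7.78) were cycling. The intervals cover counting error only. The share was 5.61% ± 3.70 (SD, n = 2) in sham and 4.45% ± 2.07 (SD, n = 2) in RVVO, a difference of -1.17 percentage points that lay inside the spread of the libraries (two-sided exact permutation test, p = 0.6667, the 6 arrangements allowing none below 0.33). The groups overlapped, with RVVO 1 at the level of sham 1 and RVVO 2 between the sham libraries. With a limit of 1 cycle-gene UMI they did not overlap, at 11.06% and 14.86% in sham and 8.21% and 10.69% in RVVO. That difference was -3.51 percentage points (p = 0.33, same exact test). With the limit of 2 UMIs, the difference without sham 2 was 1.45 and without RVVO 1 it was 0.298, so its sign rested on single libraries. Unthinned, the shares were 7.46%, 12.3%, 8.86% and 10.4%. Ryr2-rich nuclei, which stand for cells that should seldom carry the program, passed the cycle limit in 0.0729%, 0.221%, 0.130% and 0.119% at 1000 UMIs each, below the lower bound of each of the 4 macrophage intervals. Unthinned they passed it in 1.57%, 1.61%, 3.74% and 2.16%, with median depths of 5179, 5197, 8704 and 5122 UMIs against 2087, 2158.5, 3272 and 2766 in macrophages.

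**Figure D2:**
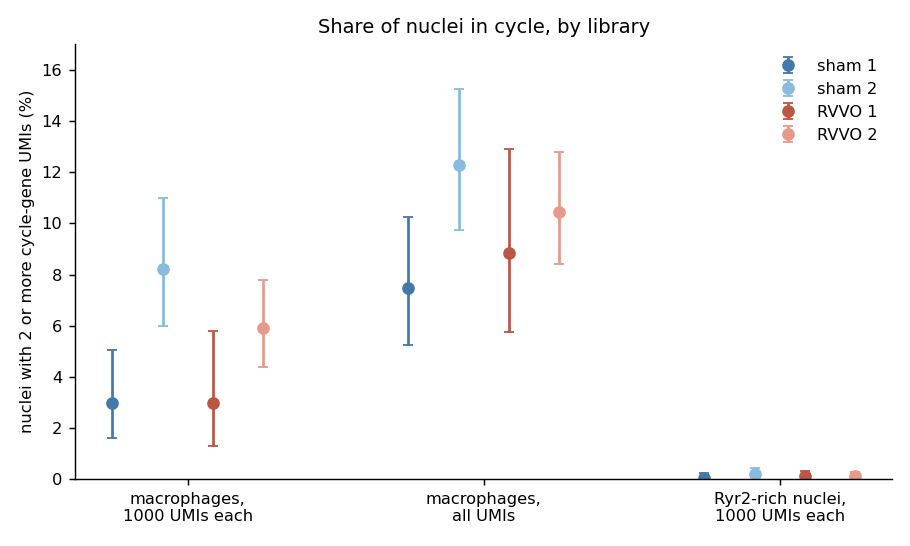
Percent of nuclei with 2 or more UMIs over the 6 cycle genes (y axis) in each library, for macrophages thinned to 1000 UMIs, macrophages at full depth and Ryr2-rich nuclei thinned to 1000 UMIs. Points are libraries and bars are exact 95% binomial intervals, and at 1000 UMIs the sham libraries (2.995% and 8.23%) enclose RVVO 2 (5.91%), with RVVO 1 at 2.985%.

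Genes the rule did not use carried the same program. Over 53 other mitosis genes (kinetochore, spindle, mitotic kinases and cytokinesis), 205 of 213 members had at least 1 UMI (96.2%) against 1172 of 1900 non-cycling macrophages (61.7%), and over 30 DNA replication genes 186 members (87.3%) against 987 (51.95%). These shares are at full depth, where members had a median of 3552 UMIs against 2451.5, and the part of depth in them was not tested. The summed mitosis level rose with the number of cycle-gene UMIs, from 460 CPM in macrophages with 0 and 856 in those with 1 to 1661 in members with 2, 4057 in members with 3 to 5 and 8113 in members with 6 or more. The replication level was 381, 679, 1314, 1500 and 1981 CPM in the same order. Among members of single libraries it rose through the 3 classes in RVVO 2 alone, at 609, 836 and 1536 CPM. It was 1500, 1673 and 1322 in sham 1, 2471, 2774 and 2333 in sham 2 and 1067, 94.4 and 3347 in RVVO 1. Pooled over libraries, the members at the limit of 2 UMIs lay above the macrophages with 1 UMI on both lists. The 20 members with 2 UMIs in RVVO 2 were below this pooled level of macrophages with 1 UMI, at 578 for mitosis and 609 for replication. The level of macrophages with 1 UMI was not taken for single libraries. All non-cycling macrophages of RVVO 2 had a replication level of 300 CPM, beside 412 in the pool. Macrophage genes outside the rule were read as well. A UMI over 19 such genes, among them the complement genes C1qa, C1qb and C1qc, was found in 209 of 213 members (98.1%) and in 96.4% of non-cycling macrophages, but at full depth also in 74.7% of nuclei with at least 1% Ryr2. Thinned to 1000 UMIs, it was found in 197 of 211 members (93.4%), in 92.7% of non-cycling macrophages, in 26.6% of nuclei with at least 1% Ryr2 and in 33.1% of nuclei under 1% Ryr2 with 0 UMIs of the rule's macrophage genes. Without Rbpj and Slc9a9, which are not particular to macrophages and were left out after seeing the values, the shares at 1000 UMIs were 78.2%, 81.3%, 13% and 21.8%. The full-depth medians of the 4 kinds of nuclei were 3552, 2451.5, 5862.5 and 2265 UMIs.

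The members did not all sit at the same point of the cycle by these counts. With limits set after seeing the values, 44 members had at least 20 mitosis UMIs and at most 3 replication UMIs, and 57 had at least 10 replication UMIs, of which 37 also had at least 20 mitosis UMIs. Some genes outside both lists were unevenly spread between these nuclei. Ccnb1 (cyclin B1, the partner of CDK1 at entry into mitosis) was read in 10 of the 44 and in 3 of the 57, while Ccne2 (cyclin E2, which acts at the start of DNA synthesis) was read in 1 of the 44 and in 20 of the 57. Brca1 (repair of replication-linked breaks) was read in 7 of the 44 and 40 of the 57, and E2f1 (an activator of S phase genes) in 3 and 19. Others were read at closer shares, Ccna2 in 4 of the 44 and 7 of the 57, Foxm1 in 10 and 14 and Hmgb2 in 19 and 18. The other 112 members (52.6%) fell in neither kind. The mitosis-rich, replication-poor nuclei were 4 of 35 members in sham 1, 12 of 71 in sham 2, 4 of 24 in RVVO 1 and 24 of 83 in RVVO 2, and the replication-rich nuclei were 5, 27, 9 and 16. The median UMI count was 3672 in the former and 4716 in the latter, so depth differed between them and its part in the counts was not tested.

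**Figure D3:**
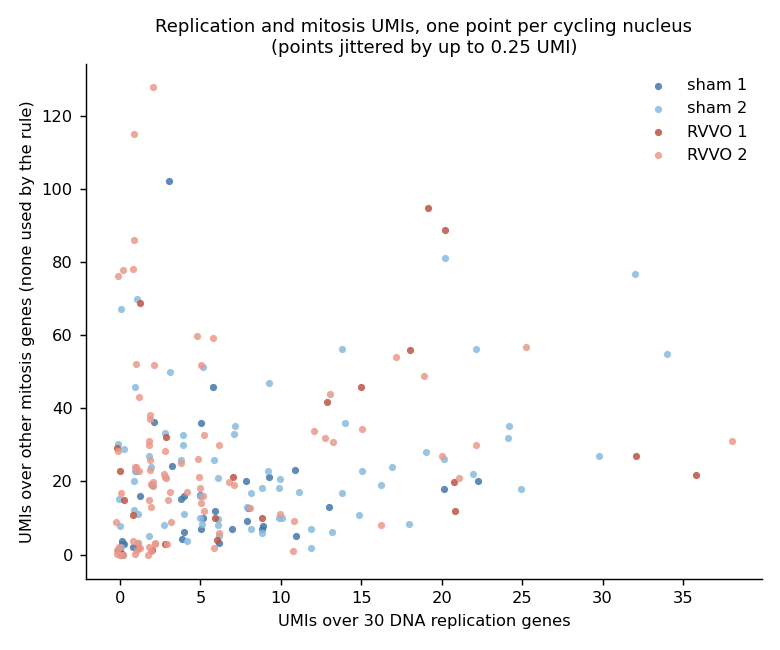
UMIs over 30 DNA replication genes (x axis) against UMIs over 53 mitosis genes outside the rule (y axis), one point per cycling macrophage nucleus, coloured by library and jittered slightly. Some points lie along the mitosis axis, with 44 nuclei at 20 or more mitosis UMIs and at most 3 replication UMIs, while 37 of the 57 nuclei at 10 or more replication UMIs also had at least 20 mitosis UMIs.

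Cycling nuclei had more UMIs than other macrophages in each library. At full depth the median was 2892, 3143, 4806 and 3683 UMIs in the members of sham 1, sham 2, RVVO 1 and RVVO 2 against 2022, 1982, 3217 and 2722 in non-cycling macrophages, but the rule itself favours deep nuclei. With the state read from counts thinned to 1000 UMIs, the ratio of medians was 1.07, 1.30, 1.35 and 1.21, from 13, 41, 8 and 47 cycling nuclei. The mean log2 ratio was 0.30 ± 0.15 (SD, n = 4) and above 0 in 4 of 4 libraries (two-sided exact sign-flip permutation test, p = 0.13, the smallest that 16 arrangements allow). With thinning to 500 UMIs the ratios were 1.12, 1.30, 1.77 and 1.01, from 4, 19, 5 and 34 cycling nuclei.

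Summed counts of cycling and non-cycling macrophages were then compared gene by gene within libraries. Of 9662 genes tested outside the rule, 678 (7.02%) changed at an adjusted p under 0.05 (edgeR quasi-likelihood test with Benjamini-Hochberg adjustment), 442 higher (4.57%) and 236 lower (2.44%) in cycling nuclei. The lower calls were the less stable, with 322 higher and 54 lower by DESeq2, 266 and 13 with no library block, 310 and 52 without sham 2 and 268 and 69 without RVVO 2. Of the 442 higher and 236 lower genes, 410 and 218 had the same sign in all 4 libraries. Since the nuclei were chosen by the cycle program, its genes had to be higher, and their counts and folds are read only as a description of which parts of the program these nuclei carried. The 15 largest rises were Iqgap3, Hmmr, Ckap2, Prc1, Kif2c, Nuf2, Prr11, Troap, Aspm, Esco2, Parpbp, Kif4, Neil3, Ccnb1 and Cep55. Prc1, which bundles the microtubules of the central spindle, had 163 UMIs in 74 members and 7 UMIs in 6 non-cycling nuclei. Neil3, a glycosylase that unhooks crosslinked DNA in S phase, had 262 UMIs in 113 members and 30 UMIs in 20 non-cycling nuclei.

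Of the DNA replication genes, 18 of 30 were higher and 7 were tested without a call. On sums over nuclei thinned to 1000 UMIs, 4763 genes were tested. There the higher calls were 8 for replication, 4 for repair and recombination and 2 for chromatin genes. Hells (a chromatin remodeler of replicating DNA) was at 58.5, 152, 89.7 and 69.9 CPM in the members of sham 1, sham 2, RVVO 1 and RVVO 2 and at 16.8, 43.9, 16.9 and 9.05 in non-cycling macrophages. Rrm2 (the S phase subunit of ribonucleotide reductase) rose by a log2 fold change of 3.77 ± 0.69 (SE) and Mcm6 (a helicase subunit) by 1.09 ± 0.25, the latter without a call when sham 2 or RVVO 2 was left out. All 12 repair and recombination genes were higher, with log2 fold changes from 2.21 to 4.10, among them Brca1 at 3.51 and Fancd2 (the Fanconi anaemia protein loaded at stalled forks) at 4.10. Of the 9 genes listed for DNA methylation upkeep and chromatin, 7 were higher, including Dnmt1 (maintenance DNA methylation, 1.44) and its partner Uhrf1 (2.64). Ezh2 (the H3K27 methyltransferase) was at 168, 249, 242 and 212 CPM in members against 58.5, 73.5, 48.4 and 48.1.

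The mitotic lists were higher almost in full, with 15 of 15 kinetochore and checkpoint genes, 20 of 22 spindle genes, 10 of 10 condensin and chromosome structure genes and 15 of 16 mitotic kinase and cytokinesis genes called. Their median log2 fold changes were 4.32, 5.04, 2.85 and 4.15, against -0.05 over all genes tested. On the thinned sums the higher calls were 9, 16, 8 and 8 in the same order. Aurkb (the chromosomal passenger kinase) was at 80.5, 70.6, 35.9 and 53.8 CPM in members and at 4.43, 0, 0 and 1.65 in non-cycling macrophages, so that members lay above in each library. Lmnb1 (lamin B1) rose by 3.07 ± 0.23 on the log2 scale. Plk1 and Kif20a had too few counts to be tested, as did Mcm2 and Mcm4.

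The regulators behaved unevenly. Of 13 cyclins and cyclin-dependent kinases, 6 were higher (Ccne2, Ccna2, Ccnb1, Ccnb2, Ccnf and Cdk1) and 1 was lower, beside 4.57% and 2.44% of all tested genes, while Cdk2, Cdk4, Cdk6, Ccnd1 and Ccnd2 were not called. The gene that was lower was Ccnd3 (cyclin D3, which opens the cycle by activating CDK4 and CDK6), at 439, 628, 610 and 831 CPM in members and 848, 1123, 1681 and 1206 in non-cycling macrophages. It was lower in 4 of 4 libraries (log2 fold change -0.95 ± 0.13 (SE), edgeR adjusted p = 6.68e-06), and the call held when each library was left out. Ccnd3 gave more UMIs to this list's sum than its other genes did singly (606 in members), and that sum was lower in members in each library, at 0.588 to 0.937 of the non-cycling level. Among 14 transcription factors of the cycle, 11 were higher, including E2f1, E2f7, Mybl2 (B-MYB, log2 fold change 2.87) and Foxm1 (4.03). Of these, E2f1 and the cyclin Ccne2 lost the call without sham 2 or RVVO 2, Mybl2 without sham 2 and Ccnb2 without RVVO 2, and Ccna2 could be tested in 2 of the 4 leave-outs. The 6 higher cyclins and kinases became 4 without sham 2, 3 without RVVO 2, 3 with no library block and 1 on thinned sums. The 11 higher transcription factors became 6 on thinned sums. Rb1, Rbl2 and Tfdp2 were not called. Of 7 inhibitors of cyclin-dependent kinases, Cdkn2c (p18) rose by 2.49 ± 0.56 and Cdkn2a (p16 and ARF) by 2.82 ± 0.81 on the log2 scale, the latter from 15 UMIs in 10 members and without a call in any of the 3 leave-outs in which it could be tested. Cdkn1a (p21) and Cdkn1b (p27) were not called.

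**Figure D4:**
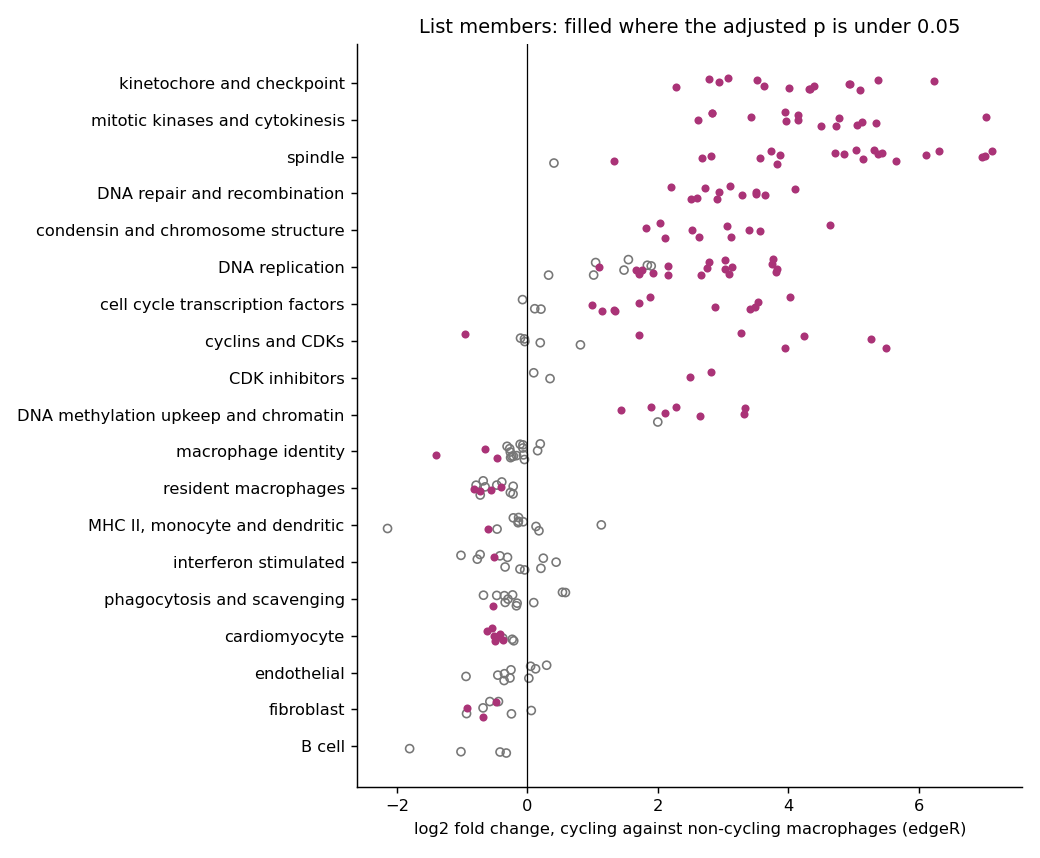
Log2 fold change of cycling against non-cycling macrophages (x axis) for the tested members of each gene list (rows), filled where the edgeR adjusted p was under 0.05. The mitotic lists lie to the right of 0, with medians from 2.85 to 5.04, while the 13 tested resident macrophage genes all lie to the left, with a median of -0.57.

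Promoter matches were also counted over the lists. In the 300-base promoters a CHR match stood in 29 of 43 matched genes of the mitosis lists (67.4%) and in 5 of 25 replication genes (20%), against 13.8% of 7357 matched genes tested. It stood in 38.3% of 329 matched genes called higher and in 12.3% of 162 called lower. CCAAT matches were at 65.1% in the mitosis lists, 60% in the replication list and 38.1% in all genes tested, and both motifs together at 55.8%, 16% and 5.82%.

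Macrophage identity genes were mostly not called between states. Of 19 macrophage identity genes, 17 were tested, none was higher and 3 were lower, beside the 2.44% of all tested genes called lower. Rbpj (the DNA-binding partner of Notch) was at 1207, 2122, 1821 and 1769 CPM in members and 2334, 3089, 2955 and 2102 in non-cycling macrophages, lower in 4 of 4 libraries (log2 fold change -0.65 ± 0.11 (SE), edgeR adjusted p = 0.000184), and the call held without any single library. Mertk (a receptor for apoptotic cells, -0.47) and Csf3r (the G-CSF receptor, -1.40) were the others, both without a call when sham 2 or RVVO 2 was left out, and Mertk also without sham 1. The 3 calls became 2 on thinned sums, 1 by DESeq2 and 0 with no library block. C1qa, Cx3cr1 and the lineage regulators Spi1 and Maf were not called, with log2 fold changes of -0.07, -0.05, 0.08 and -0.09. In sign, 15 of the 17 were negative, with a median of -0.22. None of 15 tested regulators of macrophage growth and maturation was called, 12 of them negative with a median of -0.17.

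All 13 tested genes of resident macrophages had a lower level in cycling nuclei, and 4 passed the test, beside the same 2.44%. Cd163 (a scavenger receptor for haemoglobin complexes) was at 117, 245, 457 and 395 CPM in members and at 334, 439, 744 and 549 in non-cycling macrophages. It was lower in 4 of 4 libraries (log2 fold change -0.81 ± 0.14 (SE), edgeR adjusted p = 0.000222), also when each library was left out. DESeq2 also called it, but the fit with no library block did not (edgeR adjusted p = 0.316). Lyve1 (a hyaluronan receptor, -0.73), Sepp1 (selenoprotein P, -0.57) and Wwp1 (a ubiquitin ligase, -0.40) were called with all 4 libraries and lost the call whichever library was left out. The 4 calls became 2 on thinned sums, 1 by DESeq2 and 0 with no library block. Timd4 (a phosphatidylserine receptor) and Folr2 (folate receptor beta) had log2 fold changes of -0.47 and -0.72 and were not called. The median of the list was -0.57, beside -0.05 over all genes tested. The list's summed level in members was 0.716 to 0.792 of that in non-cycling macrophages. In the same sums the cardiomyocyte list, which macrophages do not make, was at 0.728 to 0.812 of the non-cycling level and the macrophage identity list at 0.740 to 0.935, and the part of free cardiomyocyte RNA and of depth in these differences was not tested.

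After thinning to 1000 UMIs, a resident macrophage UMI was found in 68.6%, 66.7%, 70.8% and 72.3% of members and in 72.9%, 74.8%, 84.0% and 80.8% of non-cycling macrophages of sham 1, sham 2, RVVO 1 and RVVO 2. The share was lower in members of 4 of 4 libraries, by -8.54 ± 3.61 percentage points (SD, n = 4; two-sided exact sign-flip permutation test, p = 0.13, the smallest that 16 arrangements allow). With thinning to 2000 UMIs the difference was -1.83 ± 4.5 (SD, n = 4; p = 0.5, same exact test), and at full depth it was 1.35, with the members deeper. For genes of MHC class II, monocytes and dendritic cells the differences were -4.61, 3.71, 6.90 and -18.5 percentage points, with no common direction (p = 0.75, same exact test). Cd74 (the MHC class II invariant chain) was lower by a log2 fold change of -0.60 (edgeR adjusted p = 0.0224), without a call when sham 2, RVVO 1 or RVVO 2 was left out. H2-Aa and Ccr2 were not called (-0.06 and 0.13). The monocyte genes Ly6c2 and Chil3 were at 0 UMIs in the members.

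**Figure D5:**
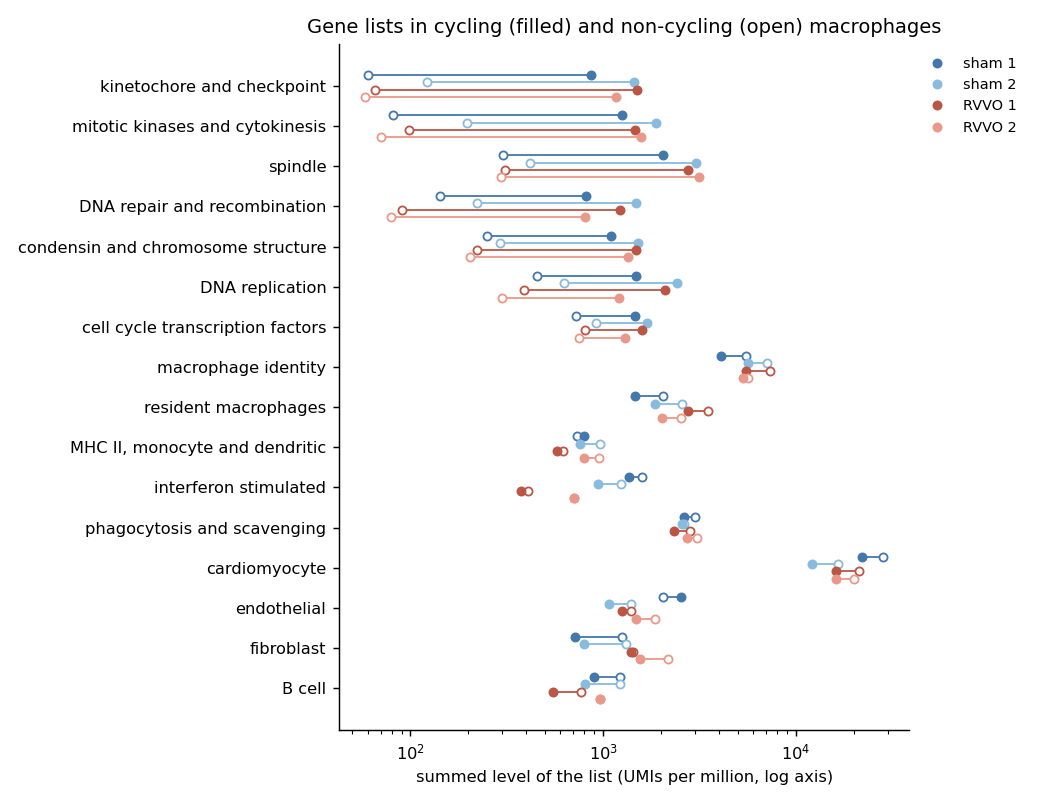
Summed level of each gene list in CPM (x axis, log scale) in cycling (filled) and non-cycling (open) macrophages of each library, joined by a line. Kinetochore genes sit 11.9 to 23.1 times higher in members, while the resident macrophage and cardiomyocyte lists sit 0.716 to 0.812 of the non-cycling level.

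Few genes of phagocytosis, interferon response and early activation were called. Of the 12 tested phagocytosis genes, 1 was lower (Abca1, a cholesterol exporter, -0.53), 1 of 12 interferon stimulated genes was lower (Stat2, -0.51) and none of 5 tested immediate early genes was called, beside the 2.44% of all tested genes called lower. Abca1 lost its call without sham 1, RVVO 1 or RVVO 2, and Stat2 whichever library was left out. Xist was at 3278 and 3947 CPM in the members of sham 1 and sham 2 and at 2042 and 2377 in their non-cycling macrophages, with none in the RVVO libraries (log2 fold change 0.65 ± 0.13 (SE), edgeR adjusted p = 0.00215). Tsix, its antisense partner, was also higher (0.71). Tsix overlaps Xist on the opposite strand, so the pair may share reads. Both calls rested on the sham libraries and were lost without sham 2, Tsix also without sham 1.

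No tested member of the marker lists of other cell types was called higher in the cycling nuclei. Few genes of some lists could be tested, 1 of 4 glial, 3 of 8 T and NK, 1 of 6 neutrophil and mast cell and 0 of 4 adipocyte genes. The glial list in sham 1, sham 2, RVVO 1 and RVVO 2 was at 0.172, 0.21, 1.99 and 2.31 times the non-cycling level. It had 1, 1, 16 and 30 UMIs in members. The adipocyte list was at 0, 1.47, 0 and 1.36 times, from 0, 1, 0 and 15 UMIs. In the members of sham 1, sham 2, RVVO 1 and RVVO 2 the 10 cardiomyocyte genes summed to 22120, 12070, 16070 and 16160 CPM, led by Ttn, against 28440, 16570, 21250 and 19910 in non-cycling macrophages and 35080, 29900, 33160 and 31370 in all nuclei. All 10 had a lower level in members and 7 were called, beside the 2.44% of all tested genes called lower, among them Myh6 (log2 fold change -0.51, called whichever library was left out) and Ttn (-0.38, without a call when sham 1, sham 2 or RVVO 1 was left out). The 7 calls became 3 without sham 1 or sham 2, 4 without RVVO 2, by DESeq2 or on thinned sums, and 0 with no library block. Fibroblast genes were called lower in 3 of 9 tested cases, led by Gsn (gelsolin, -0.93), beside the same 2.44%, and none of 10 endothelial genes was called. Gsn kept its call whichever library was left out, while 1 fibroblast gene was called by DESeq2, on thinned sums and without sham 1, sham 2 or RVVO 2, and 0 with no library block. The 15 largest falls included Muc16 and Cdh11. Muc16, a mesothelial mucin, had 4 UMIs in 3 members and 277 UMIs in 72 non-cycling nuclei, 31 of them in a single nucleus, and lost its call without RVVO 2. Cdh11 (cadherin 11 of fibroblasts) had 16 UMIs in 9 members and 408 in 146 non-cycling nuclei, 70 in a single nucleus, and also lost its call without RVVO 2. Agbl1 had 0 UMIs in members and 134 in non-cycling nuclei, at least 7.05-fold lower against a floor of 3 UMIs over all members. Others were Chst3, Lvrn, Pkhd1l1, Grip1, Aff2, Efemp1, Epm2a, Pcdh15, Ikbip, Fbln2 and Tmem108. Of the 15 largest falls, Agbl1 and Pkhd1l1 kept their call whichever library was left out.

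Lymphocytes were looked for because Ptprc and Dock2 are shared by all leukocytes. No UMI of Cd3e, Cd3g, Cd3d (T cell receptor complex), Klrb1c (natural killer cells) or Cd79b (B cell receptor) was read in the 213 members. Other genes of the T and NK list were read, Skap1 (an adaptor of T cell adhesion) with 46 UMIs in 11 members, Themis (a T cell development protein) with 15 in 4 and Bcl11b (a T lineage transcription factor) with 13 in 6. At least 2 UMIs of the list were found in 10 of 213 members and 45 of 1900 non-cycling macrophages, in RVVO 2 in 7 of 83 and 19 of 712. The list's level in members was 7.32, 52.0, 71.8 and 164 CPM, and only in RVVO 2 did it lie above that of non-cycling macrophages, at 1.9 times. Skap1, Themis and Bcl11b had positive interactions of state and surgery at unadjusted p of 0.00108, 0.00174 and 0.0297, and none was called (edgeR adjusted p = 0.525, 0.584 and 1). The part of lymphocyte nuclei or doublets in these values was not tested. No UMI of Mrc1, F13a1 or Csf1r was read in 19 members (8.92%) and in 172 of 1900 non-cycling macrophages (9.05%). At least 2 UMIs of the B cell list without Ebf1 were found in 56 of 213 members and 416 of 1900 non-cycling macrophages. B cell genes were present mainly as Ebf1, with 502 UMIs in 88 members, and Bank1, with 241 UMIs in 86 members. The level of the list with Ebf1 was 900, 807, 547 and 968 CPM in members and 1230, 1221, 764 and 967 in non-cycling macrophages. By doublet score, which ranks how much a barcode resembles a simulated mix of 2 nuclei, 4, 10, 1 and 9 members fell in the top fraction that barcode loading predicts, 11.4%, 14.1%, 4.17% and 10.8% of the members, against 13.6%, 16.8%, 4.45% and 12.2% of non-cycling macrophages.

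Within cycling macrophages, RVVO and sham differed by the sex genes. Of 4859 genes tested, 5 (0.103%) were called (edgeR quasi-likelihood test with Benjamini-Hochberg adjustment). Xist and Tsix were lower in RVVO (2 genes, 0.0412%) and Uty, Ddx3y and Eif2s3y higher (3 genes, 0.0617%). Without RVVO 1, which left a single RVVO library, these calls were lost, but the fold changes were about as large. Over the leave-outs the log2 fold change was -12.9 to -12.3 for Xist, -10.2 to -9.51 for Tsix and 8.22 to 9.29 for Uty. For Ddx3y it was 7.65 to 8.19 and for Eif2s3y 7.56 to 7.88. An unadjusted p under 0.05 was reached by 187 genes, and DESeq2 called 6. Outside the X inactivation and Y-linked genes, the next by p were Kirrel3 (edgeR adjusted p = 0.0561) and Snx17, a sorting nexin, at 29.3, 11.2, 98.7 and 191 CPM in the members of sham 1, sham 2, RVVO 1 and RVVO 2 (log2 fold change 3.09, edgeR adjusted p = 0.0713). Snx17 was split the same way in non-cycling macrophages, at 13.3 and 11.8 CPM in sham and 196 and 195 in RVVO. The comparison rested on 213 members over 4 libraries. On simulated data it recovered 64% of log2 changes of 2 and 9% of those of 1.

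Outside the sex genes no list member was called between RVVO and sham in the members. The summed interferon stimulated level was 1368 and 944 CPM in the members of the sham libraries and 377 and 707 in those of the RVVO libraries, and the groups did not overlap. Such separation was common with 2 libraries a group, occurring in 6 of the 32 lists in members (resident macrophage, interferon, sex, fibroblast, glial and T and NK) and in 11 of 32 in non-cycling macrophages, so it is given as a description, and 0.103% of single genes passed the edgeR test in members. The resident macrophage level was 1463 and 1847 CPM in sham members and 2745 and 2014 in RVVO members, and of its 8 tested genes none was called. Cd163 had a higher level in RVVO members (log2 fold change 1.16, edgeR adjusted p = 0.884) and Lyve1 a lower one (-1.04, edgeR adjusted p = 0.998), both at an unadjusted p under 0.05. For the interferon list the groups were also apart in non-cycling macrophages, at 1597 and 1241 in sham and 408 and 705 in RVVO. Of the list, 4 genes were tested, all with a lower level in RVVO, 3 at an unadjusted p under 0.05 and none called, with Stat2 at 234 and 197 CPM in sham members and 53.8 and 134 in RVVO members. All 10 tested replication genes had negative log2 fold changes, with a median of -0.53 beside -0.004 over all genes tested, and none was called. Of the repair genes 8 of 9 were negative, while 16 of 20 tested spindle genes and 7 of 11 kinetochore genes were positive, with none called. Dtl, which marks replication proteins for destruction, was at 73.2 and 156 CPM in sham members and 71.8 and 34.9 in RVVO members. Fibroblast genes had a summed level of 717 and 799 CPM in sham members and 1390 and 1559 in RVVO members. Of these genes 7 of 7 tested were positive, 5 at an unadjusted p under 0.05 and none called. In non-cycling macrophages the level was 1255 and 1320 in sham and 1433 and 2157 in RVVO, without overlap. Fibroblast genes in all nuclei were at 1504, 1828, 1699 and 2429 CPM, and the part of free RNA in the difference was not tested. Haemoglobin and other erythroid genes were at 541, 558 and 479 in sham 1, sham 2 and RVVO 2 and at 2108 in RVVO 1, where all nuclei also had 1689.

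The cycling effect itself was compared between RVVO and sham as an interaction. Of 9677 genes tested, 1 (0.0103%) was called (edgeR), Kirrel3, a cell adhesion protein of the immunoglobulin family, and 402 reached an unadjusted p under 0.05, while DESeq2 called 0. Kirrel3 had 23 and 16 UMIs in the members of sham 1 and sham 2 and 0 in both RVVO libraries, against 13, 12, 18 and 31 UMIs in non-cycling macrophages. The sham UMIs lay in 9 members, 12 of them in a single nucleus. No member of the cycle lists was called. In most cycle lists the signs were mainly positive (a larger difference between states in RVVO), in 18 of 21 tested spindle genes, 12 of 12 repair genes, 13 of 15 kinetochore genes, 13 of 15 mitotic kinase and cytokinesis genes and 21 of 25 replication genes. Over all genes tested, 5059 of 9677 were positive. The cyclins and cyclin-dependent kinases had 5 positive and 7 negative signs, and their inhibitors 2 and 2. The levels behind the positive signs lay partly in the non-cycling macrophages. The replication level of non-cycling macrophages was 538 CPM in sham and 343 in RVVO and their repair level 182 and 84.5, without overlap. In members the means were 1947 and 1652 for replication and 1148 and 1015 for repair, with overlap. The rule's 6 cycle genes, held to at most 1 UMI, were at 36.8 and 24.3 CPM in non-cycling macrophages, without overlap. These nuclei had medians of 2022 and 1982 UMIs in sham and 3217 and 2722 in RVVO, and the part of depth was not tested. For the spindle list, non-cycling means were 361 and 302 and members' means 2534 and 2940, both with overlap. The spindle list had a median interaction of 1.17 on the log2 scale, beside 0.03 over all genes tested, with 9 genes at an unadjusted p under 0.05.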

How the data were processed

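Single-nucleus RNA libraries of right ventricles, 2 sham and 2 RVVO, were used. The authors deposited, per library, raw UMI counts per gene and barcode. The submitters' processing notes name Cell Ranger 3.0.1, STAR, Seurat 3.0.2 and build GRCm38 (mm10), whereas the matrix headers name Cell Ranger 5.0.0. The counts are filtered barcodes with no cell type annotation. Members and gene lists were chosen with earlier results of these data known. The rule was applied to full counts. Each macrophage nucleus was thinned to 1000 UMIs without replacement for shares, leaving out shallower nuclei. Counts were summed per library and state and tested with edgeR 4.0.16 (R 4.3.3; TMM, filterByExpr, quasi-likelihood), with library as a block between states and without it between RVVO and sham. The 15 rule genes stayed in library sizes and were not tested between states. CPM values are sums over nuclei per 1000000 of their UMIs. Single values were tested with exact permutation tests over libraries. The check on simulated data used 9662, 4859 and 9677 genes for the comparisons of states, of surgery and of their interaction. With 200 genes changed in each, 146, 77 and 48 were called, of which 3.42%, 5.19% and 0% were false. Log2 changes of 2 were recovered in 86%, 64% and 42% of cases and those of 1 in 55%, 9% and 6%. Genes were named from the rule, as the 15 largest rises and 15 largest falls among called genes of one sign in all libraries with at least 10 UMIs, as called genes of the other comparisons and as list members. Some genes that this rule names are not reported here. Promoters came from RefSeq (GRCm38.p6). Gene identifiers matched the GENCODE M21 annotation for 27645 of 27998 genes. Doublet scores came from Scrublet in scanpy 1.11.5, whose own threshold marked no barcode, so 0.8% of barcodes per 1000 loaded were taken in order of score, and doublets were left in the main results. Alternatives were DESeq2 1.42.0, other normalization and filters, other thinning and rule limits, and leaving out each library, and the removal of the limit on Ptprb, Pdgfra and Pdgfrb was added after seeing the data. Of the resident list, Sepp1 and Selenop are names of one gene and Sepp1 is in the files.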

Additional observations from a re-analysis of the deposited data

Results flagged for a closer look

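Kirrel3 was called as differing in its cycling effect between RVVO and sham (edgeR interaction, adjusted p = 0.00238). It had 23 and 16 UMIs in the cycling nuclei of sham 1 and sham 2, 0 and 0 in those of RVVO 1 and RVVO 2, and 13, 12, 18 and 31 in the non-cycling macrophages. The 39 UMIs lay in 9 of the sham members, and 1 nucleus held 12 of them. The adjusted p was 0.233 by DESeq2 and 0.219 without the nuclei of highest doublet score, and it was 5.3e-05 to 0.0346 when a library was left out. No cause was tested.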

How the results depend on the processing

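The difference in the share of cycling macrophages, RVVO minus sham, was -1.17 percentage points and turned to 0.991 with thinning to 500 UMIs and to 0.0111 as a share of all nuclei kept. It was -3.93 with thinning to 2000 UMIs, -3.51 with a limit of 1 cycle-gene UMI and -3.32 with the other mitosis genes. Leaving out single libraries gave -3.78 to 1.45. The added setting without the limit on Ptprb, Pdgfra and Pdgfrb gave -0.637. The difference in the share of nuclei with a resident macrophage UMI turned to 1.35 and that with an MHC II, monocyte or dendritic UMI to 1.30 without thinning, where members are deeper, and the latter ran from -6.46 to 2.0 when a library was left out. The UMIs per nucleus kept their direction under all alternatives run. Between states 678 genes were called. DESeq2 called 376 (374 of the 678), sums over thinned nuclei 210 (189 of them) and a fit with no library block 279 (274 of them), and leaving out a library gave 337 to 570 calls. Between RVVO and sham the 5 calls became 21 with no filter on low counts, 2 with thinned sums, and 0 to 25 when a library was left out. Replicate numbers shared between groups did not pair the libraries (correlation of deviations -0.0220 over 7432 genes), and a fit with the replicate block called 11. For the interaction, 1 call became 0 with DESeq2, 3 with RLE normalization, 3 with no filter on low counts, 3 with at least 6 macrophage UMIs, 2 with at least 3 cycle UMIs, 2 with non-cycling nuclei of 0 cycle UMIs, and 2 to 25 when a library was left out. The cause of these shifts was not tested. Among 162 named genes called between states, DESeq2 kept 132 calls. None of the 162 changed sign in an alternative where it could be tested, with 101 tested on thinned sums and 137 with no library block. There were 24 to 83 members a library and 2 libraries a group. On simulated data the comparison of RVVO with sham recovered 64% of log2 changes of 2 and 9% of those of 1. The interaction recovered 42% and 6%.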

Other observations

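Gene families were also counted between states, read by the start of their symbols and chosen after their values were seen. Of 18 tested nucleoporins, which build the pore of the nuclear envelope, 5 were called higher in cycling macrophages (Nup35, Nup107, Nup155, Nup160 and Nup205) and none lower, with a median log2 fold change of 0.44, beside 4.57% higher and 2.44% lower of all tested genes. Of 30 tested centrosomal Cep genes, 10 were higher, among them Cep55 of the spindle list, and none lower. Cytosolic ribosomal protein genes had lower levels in 77 of 78 tested cases, with a median log2 fold change of -0.38 and 10 calls. Nuclear genes of respiratory complex I were called lower in 12 of 43 cases, those of cytochrome c oxidase in 8 of 21 and those of ATP synthase in 8 of 17, and all 13 tested transcripts of the mitochondrial genome had lower levels, 8 of them called (median -0.43). The cardiomyocyte list had a median log2 fold change of -0.44 in the same comparison, and its part in these differences was not tested. These family counts were made with the main settings alone. Over all genes tested, the 236 lower calls became 54 by DESeq2 and 13 with no library block.

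Some genes called higher encode surface proteins known from immune cells and were picked out after their values were seen, Havcr2 (TIM-3, log2 fold change 1.11), Cd226 (DNAM-1, 0.96) and Itgae (the integrin chain CD103, 3.21, from 4, 3, 8 and 5 UMIs in the members of the 4 libraries). How these calls fared with a library left out is not given, and genes of this kind that were lower or not called were not counted. Lockd, a noncoding RNA beside Cdkn1b, was at 249, 320, 260 and 411 CPM in the cycling macrophages of sham 1, sham 2, RVVO 1 and RVVO 2 and at 7.09, 16, 5.63 and 8.64 in the non-cycling ones.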
